A study of Mus musculus with 6 samples.

Results

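The EGFR family genes examined here are 10 genes: the ligand genes Ereg, Hbegf, Tgfa, Btc, Egf and Nrg1, the receptor genes Egfr, Erbb2 and Erbb3, and Errfi1, which encodes an inhibitor of the receptors. They were chosen by name from the 19938 genes that could be named on the array, with earlier results of these data known. All 10 were measured, each by 1 probe set with that single gene symbol. RNA came from small intestine of E18.5 mouse embryos, shortly before birth. The control group has 3 samples with a wildtype label, and the other group has 3 samples in which E-cadherin, the adhesion molecule encoded by Cdh1, was conditionally knocked out (cKO). Each sample was hybridised to 1 Affymetrix Mouse Gene 1.0 array. The sources used here give neither the driver of the recombination and its cell type, nor the deleted part of Cdh1, nor how many animals a sample holds, nor any further allele in either group. Nothing in the labels says that the samples of a group came from separate animals, so a p-value reflects the spread of these 6 samples alone, and that spread may be technical.

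The EGFR family consists of receptor tyrosine kinases that pair on ligand binding and signal through Ras and ERK, PI3K and STAT proteins. Egfr binds EGF, TGF-alpha, amphiregulin, epiregulin, betacellulin and HB-EGF, Erbb3 binds neuregulins and has little kinase activity of its own, and Erbb2 has no known ligand and serves as the partner of the others. The ligands are made as membrane proteins and are released by metalloproteases. In the intestine the pathway is known for driving the growth and repair of the epithelium, with ligands coming from epithelium, mesenchyme and macrophages, and its activity is held back by inhibitors that the pathway itself induces.

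In log2 expression, Cdh1 stood at 9.86, 9.82 and 10.15 on control arrays 1, 2 and 3. On cKO arrays 1, 2 and 3 it stood at 9.70, 8.38 and 8.91. All 3 cKO values lay below the controls, by -0.95 on average (SE 0.31, limma adjusted p = 0.088), and the exact two-sided permutation test gave p = 0.1, the smallest that 3 against 3 allows. The call passed without cKO 1 (difference -1.30, adjusted p = 0.012), the array nearest to the controls. It did not pass with any other array left out (limma adjusted p between 0.15 and 0.26), and without cKO 2 the difference was -0.64. The 10 genes listed for intestinal epithelium, such as Epcam, Vil1 and Cdx2, were well expressed on all arrays, with list means between 11.10 and 11.27. Over all genes, limma called 2825 (14.2%) at an adjusted p under 0.05, 1358 higher in cKO (6.81%) and 1467 lower (7.36%). The total was 1226, 1505 and 1517 without control 2, control 3 and cKO 3. The background level of an array is the 95th percentile of 1227 chemosensory receptor genes (olfactory, vomeronasal, taste), which the gut should barely express. It lay between 5.79 on cKO 2, the dimmest array, and 6.36 on control 3.

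Of the 10 family genes, 6 rose in cKO, against 6.81% of all genes, and 0 fell, against 7.36%. The family genes and the gene lists below were chosen with earlier results of these data known. Their shares beside those of all genes, here and below, describe the sets and are not a test of them. The groups did not overlap for 9 of the 10 genes, against 35.4% of all genes: the cKO arrays lay above the controls for 6 (16% of all genes) and below them for 3 (19.3% of all genes). In limma, 9 of the 10 had an unadjusted p under 0.05, against 28.7% of all genes, with 6 of them higher (13.2% of all genes) and 3 lower (15.5% of all genes). The median difference, cKO minus control, was 0.77 on the log2 scale, compared with -0.09 over all genes. The genes that rose were the ligand genes Ereg, Btc, Hbegf and Nrg1, the receptor gene Egfr and the inhibitor gene Errfi1. Tgfa, Egf, Erbb2 and Erbb3 did not pass the threshold. With any 1 array left out, between 4 and 6 of the genes were called higher and 0 lower.

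**Figure D1:**
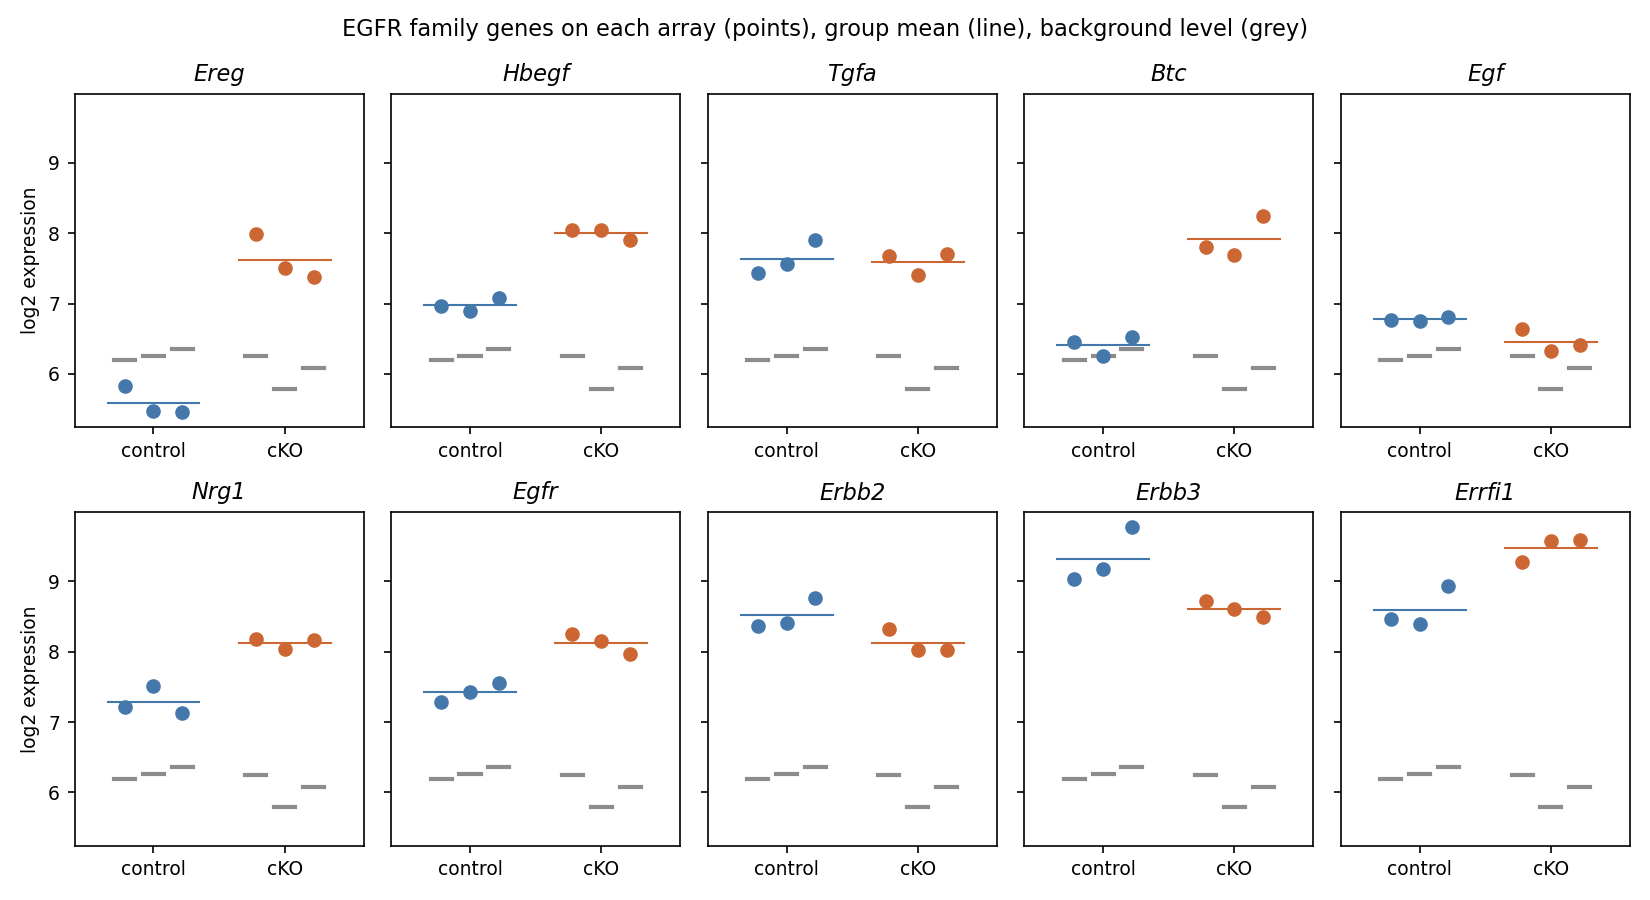
Log2 expression (vertical axis) of the 10 EGFR family genes on each of the 3 control and 3 cKO arrays (points, in the order 1, 2, 3 from left to right), with the group means as horizontal lines and each array's background level as a short grey bar. Ereg lay below the grey bars on the controls (5.46 to 5.83) and above them on the cKO arrays (7.38 to 7.99), whereas the points of Tgfa overlap between the groups.

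Ereg encodes epiregulin, a ligand of Egfr and Erbb4 that is scarce in resting epithelium and induced on injury. The control arrays 1, 2 and 3 gave 5.83, 5.48 and 5.46, and the cKO arrays 1, 2 and 3 gave 7.99, 7.51 and 7.38. Every control lay at or below its array's background level and every cKO array above it, so the groups were well apart. The difference of 2.04 (SE 0.19, limma adjusted p = 0.0012) is that of the measured values, and against the background level Ereg was at least 2.56-fold higher in cKO. Since whole tissue was measured, more cells that express a gene and more RNA in each cell cannot be told apart, here and in the results that follow.

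Btc encodes betacellulin, which also binds Egfr and Erbb4. Its values were 6.46, 6.26 and 6.52 in the controls and 7.81, 7.69 and 8.25 in cKO 1, 2 and 3. The controls were only just above the background level, by 0.27 at most, and all cKO values were higher than all controls, with cKO 3 the highest. The control mean was 6.41 ± 0.14 and the cKO mean 7.92 ± 0.29 (SD, n = 3 each), which differ by 1.50 (SE 0.17, limma adjusted p = 0.0022).

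Hbegf encodes heparin-binding EGF-like growth factor, a ligand released early in epithelial wounds. It read 6.97, 6.89 and 7.08 in the controls and 8.05, 8.04 and 7.91 in cKO 1, 2 and 3. These values varied little within each group, with an SD of 0.10 in the controls and 0.08 in cKO, and the groups were separate. The difference was 1.02, or 2.03-fold (SE 0.11, limma adjusted p = 0.0020).

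Nrg1 encodes neuregulin 1, the ligand of Erbb3 and Erbb4, which in the gut is known as a product of mesenchymal cells. It stood at 7.21, 7.52 and 7.13 in the controls and at 8.18, 8.04 and 8.16 in cKO 1, 2 and 3. The lowest cKO value lay 0.52 above the highest control, that of control 2. The difference was 0.84, or 1.79-fold (SE 0.14, limma adjusted p = 0.0076). For the 4 ligand genes that rose, the call held with each of the 6 arrays left out in turn, and Ereg, Btc, Hbegf and Nrg1 had adjusted p of at most 0.010, 0.016, 0.017 and 0.036 over all alternatives run.

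The other two ligand genes did not pass the threshold. Tgfa, whose product is a ligand of Egfr made by differentiated villus epithelium, read 7.44, 7.57 and 7.90 in the controls and 7.68, 7.40 and 7.71 in cKO 1, 2 and 3. The groups overlapped, with cKO 2 the lowest and control 3 the highest value, and the difference was -0.04 with a 95% interval of -0.41 to 0.33 (limma adjusted p = 0.89), an interval that leaves out a change as large as that of Hbegf. Egf, the epidermal growth factor gene, read 6.77, 6.75 and 6.81 in the controls and 6.64, 6.32 and 6.41 in cKO. All cKO values were lower, but by -0.32 only (SE 0.12), which did not pass (limma adjusted p = 0.13). Of all genes, 35.2% had a difference larger in size.

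Among the receptor genes, Egfr, the receptor of the ligands named above other than neuregulin, read 7.29, 7.43 and 7.56 in the controls and 8.25, 8.15 and 7.97 in cKO 1, 2 and 3. The groups were apart, and the difference was 0.70, or 1.62-fold (SE 0.13, limma adjusted p = 0.013). The call was lost without control 2, where the difference was again 0.70 but the adjusted p was 0.063.

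Erbb3, the neuregulin receptor gene, read 9.03, 9.17 and 9.77 in the controls and 8.72, 8.61 and 8.50 in cKO. All cKO values lay below all controls, while control 3 stood 0.60 above the next control. The difference of -0.71 (SE 0.20, 95% interval -1.18 to -0.25) missed the threshold (limma adjusted p = 0.056). It passed with quantile normalization (-0.66, adjusted p = 0.0496), without the dimmer 50% of genes (adjusted p = 0.024) and with array weights (adjusted p = 0.013). It did not pass with median centring (0.051), the mean of probe sets (0.056), the replicate block (0.078) or any array left out (0.051 to 0.15). Without control 3 the difference was -0.49 (adjusted p = 0.092). Erbb2, the partner receptor gene, read 8.37, 8.41 and 8.77 in the controls and 8.33, 8.02 and 8.02 in cKO. These groups were apart by 0.04 only, between control 1 and cKO 1, and the difference of -0.39 (SE 0.16) did not pass (limma adjusted p = 0.15) except with array weights (adjusted p = 0.043). The 95% interval of Egfr (0.39 to 1.0) lay above 0 and above those of Erbb2 (-0.76 to -0.03) and Erbb3.

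Errfi1 encodes Mig6, a cytoplasmic protein that binds the receptors' kinase domains, blocks them and is induced by their signalling. It read 8.46, 8.40 and 8.93 in the controls and 9.28, 9.57 and 9.59 in cKO 1, 2 and 3. Control 3 was the highest control and cKO 1 the lowest cKO value, and a gap of 0.35 separated them. The difference was 0.88, or 1.84-fold (SE 0.17, limma adjusted p = 0.016). The call was lost without control 1 (0.82, adjusted p = 0.058), control 2 (0.79, adjusted p = 0.075) or cKO 3 (0.83, adjusted p = 0.062), and the direction was the same in each.

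**Figure D2:**
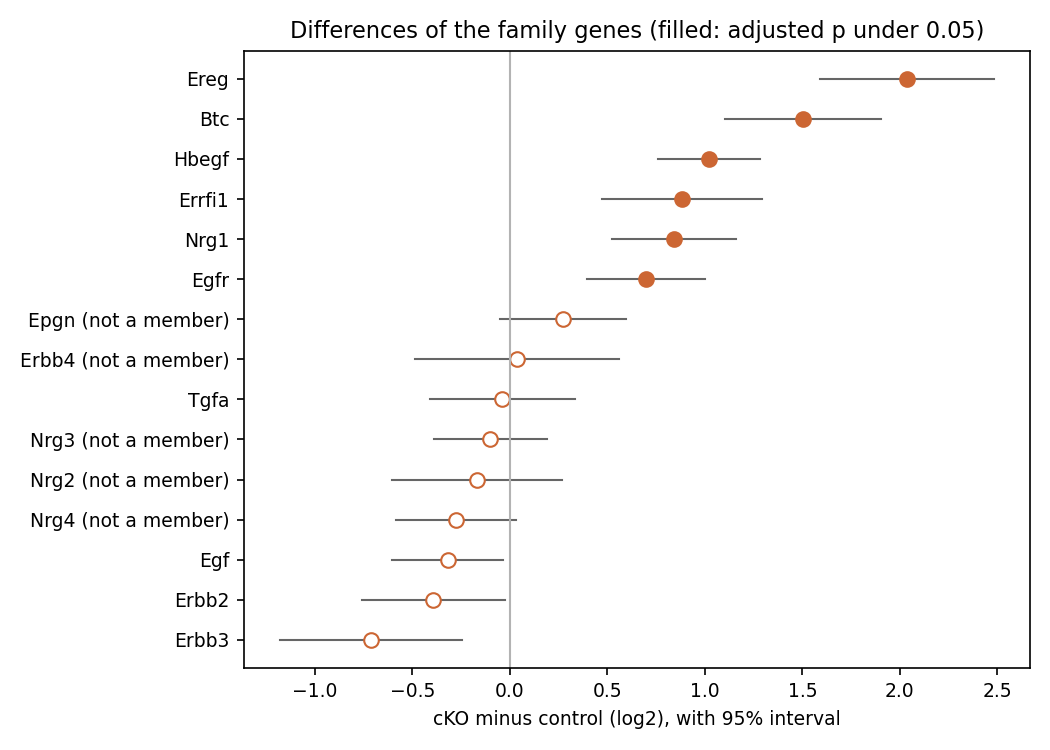
Difference between cKO and control in log2 expression (horizontal axis, points) with its 95% interval from limma for the 10 family genes and 5 other measured genes of the family, with filled points where the adjusted p was under 0.05. The 6 filled points run from 0.70 (Egfr) to 2.04 (Ereg), and the lowest point is that of Erbb3 at -0.71.

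The remaining ligand and receptor genes of the family, Epgn, Nrg2, Nrg3, Nrg4 and Erbb4, did not pass the threshold in limma, and 0 of these 5 had an unadjusted p under 0.05. With array weights Epgn was called higher (0.45, adjusted p = 0.027), at values that lay at background on all arrays. Areg, the amphiregulin gene, was not analysed here. Epgn, Nrg3, Nrg4 and Erbb4 lay at or below the background level on all 6 arrays, between 4.88 and 6.02, so that no change in them could be measured. Erbb4, a receptor of neuregulins, betacellulin and epiregulin, had means of 5.75 ± 0.32 and 5.79 ± 0.34 (SD, n = 3 each). Nrg2 was above background and read 6.57, 6.47 and 6.72 in the controls and 6.71, 6.03 and 6.51 in cKO, with overlapping groups (-0.17, limma adjusted p = 0.59). Of the neuregulin genes above background, Nrg1 rose and Nrg2 did not pass the threshold, while Nrg3 and Nrg4 could not be compared.

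Epgn, Ereg, Areg and Btc are neighbours on 1 chromosome, in this order, in the RefSeq gene table (GRCm38.p6), with no other protein-coding gene between them. Ereg and Btc rose. Epgn, next to Ereg, read 5.54, 5.19 and 5.49 in the controls and 5.69, 5.55 and 5.80 in cKO. All of these values lay at background, so no change in Epgn could be measured. Parm1, the gene on the far side of Btc, rose by 0.81 (SE 0.12, limma adjusted p = 0.0053), from 7.66, 7.43 and 7.58 to 8.48, 8.28 and 8.35. Mthfd2l, the gene on the far side of Epgn, differed by 0.22 (adjusted p = 0.35), and Rchy1, beyond Parm1, by -0.32 (adjusted p = 0.12). The neighbouring genes were looked at after their values were known.

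**Figure D3:**
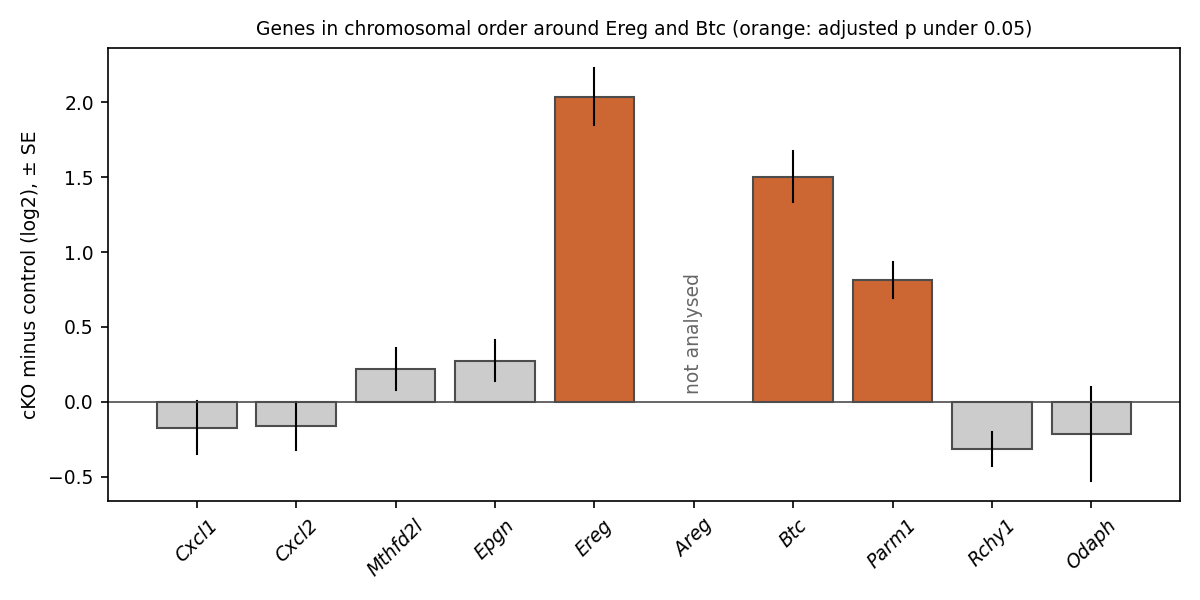
Difference between cKO and control in log2 expression (vertical axis, bars, with limma's SE as lines) for the protein-coding genes around Ereg and Btc in their order on the chromosome, evenly spaced, with orange bars where the adjusted p was under 0.05. Orange bars are those of Ereg (2.04), Btc (1.50) and Parm1 (0.81), and Epgn between Mthfd2l and Ereg has a bar of 0.27, from values at background.

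The bases before the transcription start are shown for the genes that rose and for which the RefSeq promoter table (GRCm38.p6) has an entry, Btc, Egfr and Errfi1. The table held 8 starts for 6 of the 10 genes. In each case the 250 bases before the start are printed 5′ to 3′ on the gene's strand, with matches to any of the 4 motifs searched on both strands in capitals. The motifs were TGANTCA (AP-1), TGACGTCA (the cyclic AMP response element, CRE), GGAATG (TEAD) and CCGGAA (ETS core), and no 2 of the matches shown overlap. The sequences are on the minus strand at chr5:91402995-91403244 for Btc and on the plus strand at chr11:16751953-16752202 for Egfr, chr4:150853546-150853795 for the first Errfi1 start and chr4:150854820-150855069 for the second.
Btc: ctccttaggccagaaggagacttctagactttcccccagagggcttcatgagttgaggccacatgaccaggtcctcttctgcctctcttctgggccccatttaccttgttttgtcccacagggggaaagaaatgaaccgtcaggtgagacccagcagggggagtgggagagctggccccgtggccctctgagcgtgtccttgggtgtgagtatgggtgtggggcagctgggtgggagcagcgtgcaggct
Egfr: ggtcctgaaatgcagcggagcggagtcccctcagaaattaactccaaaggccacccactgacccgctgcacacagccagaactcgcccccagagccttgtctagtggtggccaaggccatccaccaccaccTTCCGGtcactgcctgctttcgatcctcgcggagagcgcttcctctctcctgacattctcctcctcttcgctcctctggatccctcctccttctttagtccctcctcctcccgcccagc
Errfi1, first start: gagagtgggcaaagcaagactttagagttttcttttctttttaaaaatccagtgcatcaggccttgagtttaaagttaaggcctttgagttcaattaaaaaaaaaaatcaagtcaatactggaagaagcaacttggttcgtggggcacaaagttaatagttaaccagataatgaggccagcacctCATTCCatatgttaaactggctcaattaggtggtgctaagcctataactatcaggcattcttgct
Errfi1, second start: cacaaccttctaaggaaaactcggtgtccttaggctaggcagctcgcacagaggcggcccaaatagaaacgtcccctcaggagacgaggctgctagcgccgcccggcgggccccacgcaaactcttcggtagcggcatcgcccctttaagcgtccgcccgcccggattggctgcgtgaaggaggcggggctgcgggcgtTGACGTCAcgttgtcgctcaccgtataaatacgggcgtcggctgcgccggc
Btc had no match to any of the motifs in this window. Egfr held 1 ETS core match, which 12.0% of the 32851 promoter windows of the same length hold. The first Errfi1 start had 1 TEAD match (12.6% of the windows) and the second 1 CRE match (1.55% of the windows). Genes that did not rise held such matches too. Egf had 1 ETS core match at 1 of its starts and Erbb2 had 1 TEAD match, while the other Egf start and Tgfa had none. AP-1 matches, present in 6.75% of the windows, were found in 0 of the 8 starts. These matches describe the letters and are not evidence of binding.

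Around the receptors, 67 of 74 listed genes in 6 lists were measured, of which 21 rose and 2 fell, where 6.81% of all genes rose and 7.36% fell. The count of genes that rose was 10 without control 2 and 13 without cKO 3, and the count that fell was 1 without control 1 and 0 without control 2, control 3 or cKO 3. The proteins that release the ligands had 3 of 8 genes higher and 0 lower (6 and 0 at an unadjusted p under 0.05 in limma), with a median of 0.33 against -0.09 over all genes. Adam19, a metalloprotease gene that can release neuregulin, rose by 1.18 (SE 0.15, limma adjusted p = 0.0034), from 7.36, 6.99 and 7.23 to 8.16, 8.42 and 8.53. Adam12, a metalloprotease gene linked to release of HB-EGF, rose by 0.71, which was no longer called when control 2, control 3 or cKO 3 was dropped (limma adjusted p of 0.069, 0.0504 and 0.056). Rhbdf1, which encodes an inactive rhomboid that matures the main protease, rose by 0.60 and was not called without control 2 (adjusted p = 0.070). Adam17, the gene of that protease, differed by 0.23 (adjusted p = 0.22) and Adam10 by 0.31 (adjusted p = 0.11).

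Of 12 genes for other inhibitors and removers of the receptors, 3 rose and 1 fell, where 6.81% of all genes rose and 7.36% fell. The share that fell was thus near that of all genes. The median was 0.08, against -0.09 over all genes. The tyrosine phosphatase genes Ptpn12 and Ptpn1 rose by 0.85 (SE 0.12) and 0.70 (SE 0.13). Dropping control 2, control 3 or cKO 3 ended the call of Ptpn1 (limma adjusted p = 0.068, 0.055 and 0.052). Sh3kbp1, an adaptor gene of receptor internalisation, rose by 0.57, but not past the threshold with median centring (adjusted p = 0.054), the replicate number as a block (0.074) or without control 2, control 3, cKO 2 or cKO 3 (0.13, 0.11, 0.055 and 0.085). Rnf41, the ubiquitin ligase gene whose product removes Erbb3, fell by 0.44 (SE 0.10, adjusted p = 0.031), a call that the block (0.093) and leaving out control 1, control 2, control 3 or cKO 3 (0.089, 0.14, 0.087 and 0.11) ended. Lrig1, a transmembrane inhibitor gene, differed by 0.47 (adjusted p = 0.074) and Cbl by 0.38 (adjusted p = 0.11).

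Of the 12 measured adaptor and Ras to ERK genes, 1 rose and 1 fell, a share near that of all genes, with a median of -0.05. Braf rose by 0.46 (limma adjusted p = 0.044), which did not pass with the replicate block (0.082) or without control 1, control 2, control 3, cKO 1 or cKO 3 (0.10, 0.18, 0.082, 0.094 and 0.12). Map2k2, a MEK gene, fell by 0.52 (adjusted p = 0.018), which missed the threshold with the block (0.057) or on dropping control 2, control 3 or cKO 3 (0.091, 0.071 and 0.058). Of the 9 PI3K and STAT genes, 1 rose and 0 fell, where 6.81% of all genes rose and 7.36% fell, with a median of 0.02. In limma 4 were higher and 0 lower at an unadjusted p under 0.05 (13.2% and 15.5% of all genes). The gene that passed was Stat3, which rose by 0.49 (adjusted p = 0.049). It missed the threshold with median centring (0.060), the block (0.10) or without control 1, control 2, cKO 1, cKO 2 or cKO 3 (0.14, 0.17, 0.094, 0.087 and 0.098).

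Genes that ERK signalling is known to induce made up the last list. Of 21 such feedback and target genes, 13 rose and 0 fell, against 6.81% and 7.36% of all genes, with a median of 0.67. In limma 16 were higher and 0 lower at an unadjusted p under 0.05 (13.2% and 15.5% of all genes), and 8 rose without control 2. Dusp4, an ERK phosphatase gene, rose by 1.76 (SE 0.10, limma adjusted p = 0.00050), from 6.55, 6.63 and 6.51 to 8.28, 8.34 and 8.34. Plaur, the urokinase receptor gene, rose by 2.97 (SE 0.27, adjusted p = 0.0011), from 6.11, 6.0 and 5.91 to 8.36, 9.51 and 9.06. Its controls and those of Egr1, an early response transcription factor gene, were at background, which gives at least 6.53-fold for Plaur and at least 2.70-fold for Egr1. Epha2, an ephrin receptor gene, rose by 1.54 (SE 0.12, adjusted p = 0.00071). The 8 genes that did not pass ran from Spry1, a feedback inhibitor gene, at -0.43 (adjusted p = 0.26) and Spred3 at -0.08 through Fosl1, Spry4 and Etv4 at 0.10, 0.19 and 0.20 to Dusp5 at 0.53. Earlier results of these arrays on such genes were known when the list was made.

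**Figure D4:**
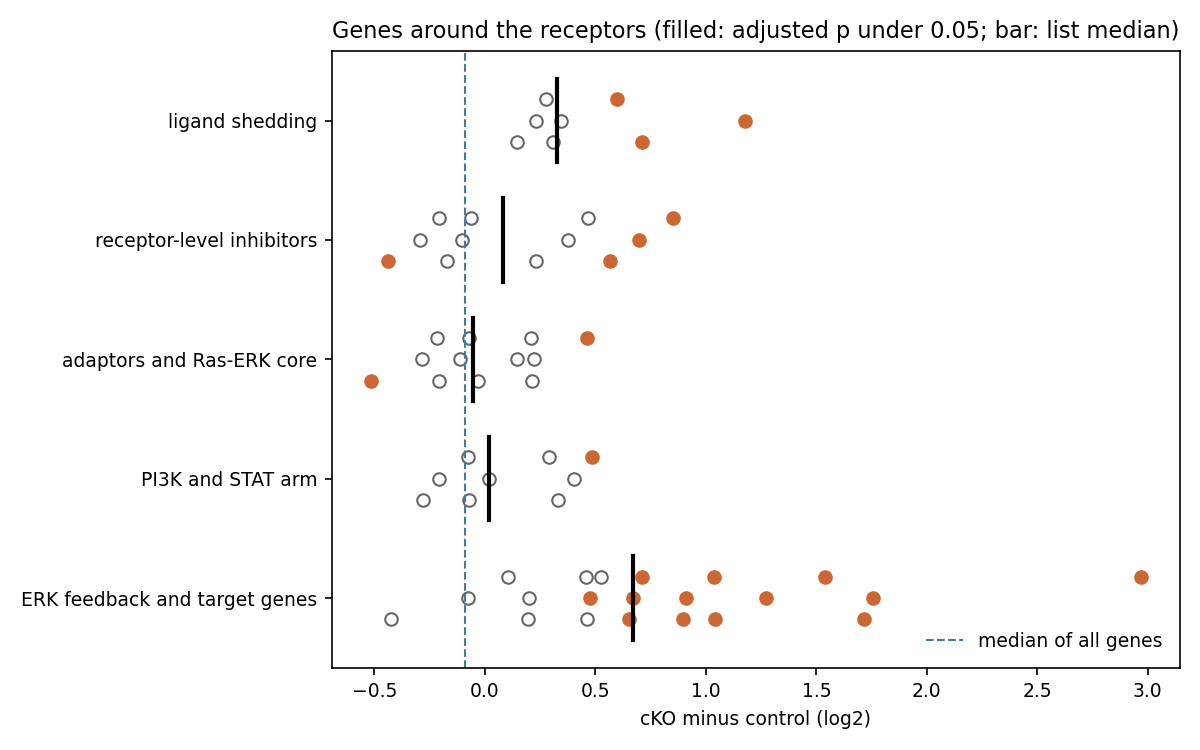
Difference between cKO and control in log2 expression (horizontal axis) for each gene of 5 lists around the EGFR family, with filled points where the adjusted p was under 0.05, black bars at the list medians and a dashed line at the median of all genes (-0.09). In the list of ERK feedback and target genes 13 of 21 points are filled and the median is 0.67, whereas the median of the adaptor and Ras to ERK list is -0.05.

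Marker genes of other cells moved in the same comparison as the family genes, where 6.81% of all genes rose and 7.36% fell. Of 8 mesenchymal genes 7 rose, and the mean of the list went from between 9.87 and 10.09 on the control arrays to between 10.55 and 10.78 on the cKO arrays. All 6 smooth muscle genes rose (10.75 to 11.08 on control arrays, 11.77 to 11.95 on cKO arrays), as did 5 of 7 macrophage genes (7.09 to 7.19 and 7.81 to 8.09). Ly6g and S100a8 were the 2 of 5 neutrophil genes that rose, and the list mean was 5.03 to 5.14 and 5.75 to 6.85. Both genes were at background on all controls. Ly6g read 6.52, 9.27 and 6.54 on cKO 1, 2 and 3, at least 2.25-fold higher. S100a8 read 5.11, 6.46 and 4.96 there, above background on cKO 2 only. Of 5 mesothelial genes 2 rose, with list means of 7.11 to 7.37 and 7.65 to 8.08, and of 7 squamous genes 2 rose. These were Sprr1a, a cornified envelope gene whose controls were at background (at least 10.2-fold), and the basal keratin gene Krt14 (0.78, limma adjusted p = 0.017), whereas the basal genes Krt5 and Trp63 differed by 0.24 and 0.02 and did not pass. The lists of endothelium and of enteric neurons and glia had 0 of 6 and 1 of 5 genes higher in limma, and 2 of each were higher at an unadjusted p under 0.05, with 1 neural gene, Ret, lower (-0.37). Among the genes of these lists, Mpo, S100b, Krt13 and Ivl lay at or below the background level on all 6 arrays. The median differences were 0.69 for the mesenchymal, 0.87 for the smooth muscle and 1.04 for the macrophage list. Beside them, the family genes that rose differed by 0.70 (Egfr), 0.84 (Nrg1), 0.88 (Errfi1), 1.02 (Hbegf), 1.50 (Btc) and 2.04 (Ereg). The part of these cells in the rise of the family genes was not tested.

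Of 7 enterocyte genes 4 fell, against 7.36% of all genes. In limma all 7 were lower at an unadjusted p under 0.05 (15.5% of all genes). The list means were 11.79 to 12.39 on the control and 10.71 to 10.98 on the cKO arrays. Of 10 genes listed for intestinal epithelium 3 rose and 1 fell, against 6.81% and 7.36% of all genes. The share that fell was thus near that of all genes. The keratin genes Krt8, Krt18 and Krt19 rose (0.91, 1.19 and 0.77), and Cdx2 fell (-0.79, limma adjusted p = 0.0073). The mean of this list was 11.10 to 11.26 on the control arrays and 11.25 to 11.27 on the cKO arrays. These values stand beside the lower cKO readings of Erbb3, Erbb2 and Egf, and their part in those readings was not tested. Pancreatic genes were high on cKO 3 only, with a list mean of 9.49 against 5.60 to 6.19 on the other arrays, and 0 of 6 passed the threshold in limma, also at an unadjusted p under 0.05. Without cKO 3, 5 of the 6 family genes that rose were still called, with Errfi1 the exception. Of 4 liver genes 1 fell, against 7.36% of all genes, and 0 of 6 stomach genes passed in limma, also at an unadjusted p under 0.05. At or below background on all 6 arrays were 4 of the stomach, 2 of the liver and 1 of the pancreatic genes, so no change in those could be measured.

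**Figure D5:**
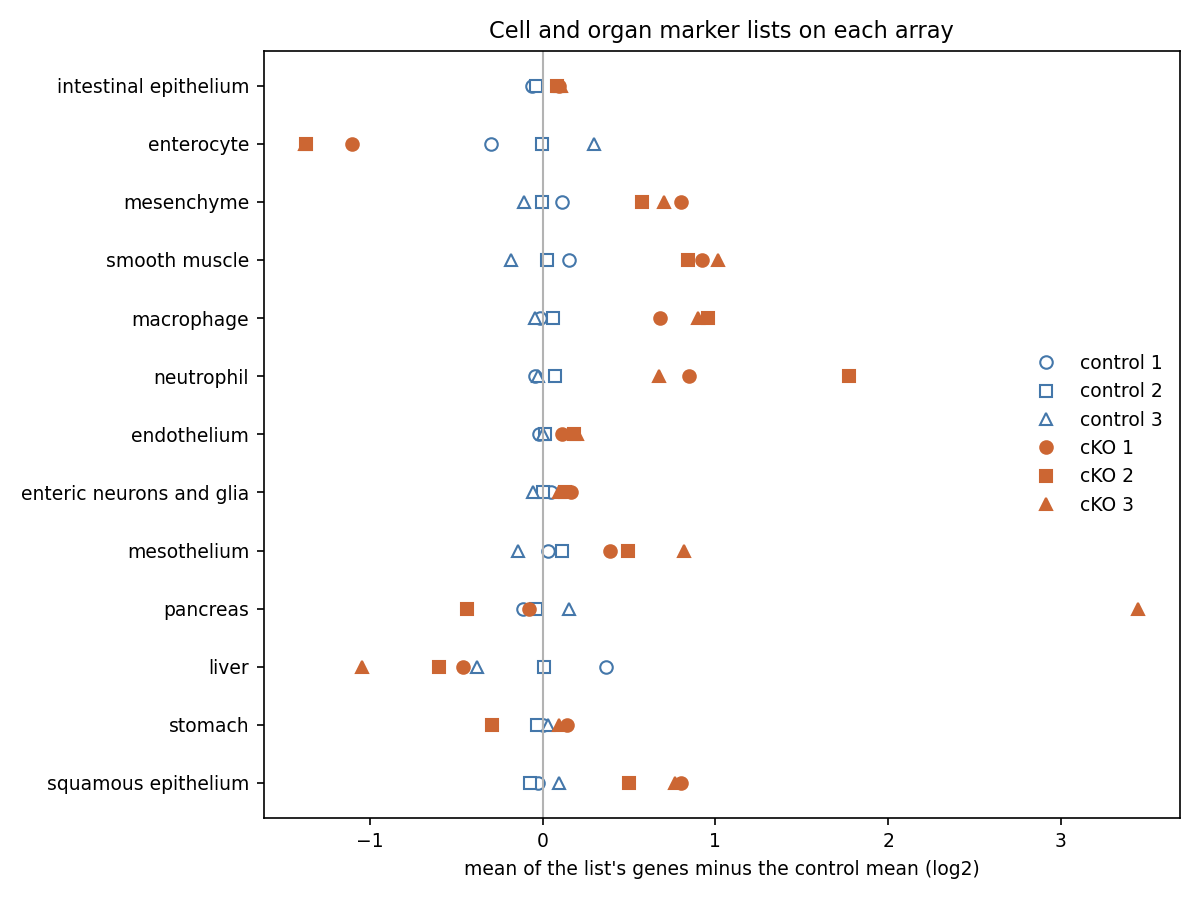
Mean log2 expression of each marker list on each array, minus the mean of the 3 control arrays (horizontal axis), with open blue symbols for controls and filled orange symbols for cKO arrays. The mesenchyme, smooth muscle and macrophage lists lie to the right on all 3 cKO arrays, the enterocyte list to the left, and the pancreas list stands out on cKO 3 alone.

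For each of the 6 genes that rose, the genes with the most similar readings were found by the root-mean-square distance over the 6 arrays, after the control mean of each gene was subtracted. Hk2, a hexokinase gene, and Nr4a1, an early response nuclear receptor gene, lay nearest to Ereg, at distances of 0.16 and 0.20 on the log2 scale. Pdgfrb, a receptor gene of mesenchymal cells, and Lrrc8c, an anion channel subunit gene, lay nearest to Hbegf (0.05 and 0.07). For Btc they were Uck2, a uridine kinase gene, and Tm6sf1 (0.13 and 0.14), and for Nrg1 Mtus2 and the peroxidasin gene Pxdn (both 0.09). Ctsk, the cathepsin K gene, whose controls were at background, and Fkbp5 lay nearest to Egfr (0.05 and 0.08), and the desmoglein gene Dsg2 and Trib1 to Errfi1 (0.06 and 0.10). With 2 groups of 3 arrays this likeness is mostly that of the size of the difference between the groups.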

How the data were processed

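The deposited table holds 35512 probe sets on 6 arrays, summarised by the authors with dChip, per the series design text. The deposited values were taken to be log2 expression because of their range. No label names the scale. The authors' background correction, normalization, expression model and genome build are not stated in the sources used here. They were used as deposited. Precision is limited by the number of arrays.

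The platform annotation named the probe sets: 21789 had 1 gene symbol, 1621 several (1 of them naming Erbb2, not used) and 12102 none listed. The gene identifier gave a current symbol for 21698 of those with 1. The brightest probe set per gene over all arrays was kept. Genes were tested with limma 3.58.1 in R 4.3.3 (lmFit and eBayes, two-sided, all 6 arrays, no covariate, Benjamini-Hochberg adjustment over 19938 genes, threshold 0.05), which was tested on simulated data. Differences are in log2 units, cKO minus control, with limma's moderated SE. A group at or below the background level on all its arrays is given as a bound, from the bright group's mean against the dim group's mean of the higher of level and value. The background level was chosen with earlier results known.

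The family genes and all gene lists were chosen with earlier results of these data known. Named genes are Cdh1, the family genes, up to 4 called genes with the smallest p of each pathway list and the 2 nearest genes of each called family gene; others named were chosen after their values were seen. Of the listed symbols, 7 pathway and 5 marker genes were not analysed here. Alternatives were quantile normalization, median centring, a filter on dim genes, the mean of probe sets, array weights, a replicate block and each array left out.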

Additional observations from a re-analysis of the deposited data

How the results depend on the processing

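The 6 calls among the family genes held with quantile normalization, median centring, the mean of probe sets, array weights and the replicate block, and without the dimmer 50% of genes 5 were called, since Ereg was then not tested. Between 4 and 6 were called higher and 0 lower with 1 array left out. Lower calls were 1 with quantile normalization and without the dimmer 50% of genes (Erbb3) and 3 with array weights (Erbb3, Erbb2 and Egf), which also called Epgn higher (0.45). Over all genes, array weights gave 5834 calls, 2921 higher and 2913 lower, and leaving out 1 array gave 1226 to 2713, 509 to 1275 and 717 to 1438. Cdh1 differed by -1.30 to -0.64 with 1 array left out and passed with median centring (-0.93), array weights (-0.89) and the filter on dim genes (-0.95). Of the genes around the receptors, array weights called 32 higher, and leaving out 1 array gave 10 to 20 higher and 0 to 2 lower. Some genes that did not pass changed sign: Tgfa with array weights (0.0913) and over a range of -0.14 to 0.0917 with 1 array left out, Nrg3 with quantile normalization (0.0508), Nrg2 over -0.32 to 0.0233 and Erbb4 over -0.14 to 0.24 with 1 array left out. The cause was not tested.

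The labels number the samples 1 to 3 in both groups. The deviations of same-numbered arrays from their group means correlated at -0.08, 0.13 and 0.14 over genes, and not every array correlated best with its own number, so the numbers were not taken to pair the samples. With the replicate block, 2212 genes were called in place of 2825, the 6 family genes among them, and around the receptors 17 were higher and 0 lower. Genes near the background level, such as Epgn, Nrg3, Nrg4 and Erbb4, allow no statement on change.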

Other observations

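The Egfr reading relative to that of Erbb3 shifted between the groups, a comparison chosen after their values were seen and given without a test. The log2 value of Egfr minus that of Erbb3 was -1.74, -1.74 and -2.21 on the control arrays. It was -0.47, -0.46 and -0.53 on the cKO arrays. The mean was -1.90 ± 0.27 in the controls and -0.49 ± 0.04 in cKO (SD, n = 3 each), a shift of 1.41. Levels of different probe sets cannot be set against each other, so the shift alone can be read. The 3 cKO arrays lay within 0.07 of each other.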
